A study of Mus musculus with 9 samples.

Results

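The 558 5′ ends described here are genomic positions at which mouse small RNA reads began and at which some reads carried 1 untemplated uridine at their 3′ end. They were chosen by the reads themselves. A read counted as U-ended when it was 18 to 25 nt long, lay on a nuclear chromosome, and matched the genome at every base except the last, where the read had U (T in the cDNA) and the genome had another base. A 5′ end became a member when its U-ended reads summed to at least 100 over the 9 libraries, and its share is the number of U-ended reads divided by all reads that start there. The rule kept 558 of the 20968 nuclear 5′ ends with any U-ended read, and 98.4% of all U-ended reads. Since the number of U-ended reads selected the members, that number and the shares pooled over libraries are given as a description. The sums nearest to the limit were 101 U-ended reads inside it and 99 outside it.

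Uridylation is the addition of uridines to the 3′ end of an RNA without a template. In mammals the terminal uridylyl transferases TUT4 (Zcchc11) and TUT7 (Zcchc6) add them to precursor and mature miRNAs. A single uridine on a let-7 precursor that has a short 3′ overhang restores the end that Dicer cuts best, while a longer uridine tail, added where LIN28 holds the precursor, marks it for degradation by DIS3L2. On mature miRNAs a single added uridine leaves the seed (bases 2 to 8, which pair with targets) as it was, and adenosine is the other base that is often added.

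The libraries were made from total RNA with 3 protocols that differ in their adapters. MIN6, a mouse insulinoma line with features of pancreatic beta cells grown in high-glucose medium, gave 3 libraries with the Illumina TruSeq kit, 3 with the Illumina v1.5 kit and 1 with the Bioo Scientific NEXTflex V2 kit, whose adapters end in random bases. Liver of 1 female C57BL/6J mouse, a control animal injected with saline and fasted, 9 weeks old when bought, gave 1 TruSeq and 1 NEXTflex library from the same RNA. The TruSeq and v1.5 MIN6 libraries were sequenced on a GAIIx at an NIH centre and the others on a HiSeq. Between NEXTflex and the other MIN6 libraries the protocol, the instrument, the sequencing centre and the RNA batch cannot be told apart. By the study's methods RNA was isolated with TRIzol at NIH or the Norgen kit at UNC, and that of liver with the Norgen kit. Both liver libraries share their RNA and the type of instrument. The study calls the 3 libraries of a group biological replicates. Neither the labels nor the methods say that they came from separate cultures, and p-values measure the spread between these libraries. The counts summed to between 6923460 and 25638872 reads a library. The NEXTflex files held fewer distinct alignments (251879 in MIN6 and 179918 in liver) than the other 7 (between 551421 and 2569547), and U-ended reads were found at 326 and 176 of the members in the NEXTflex libraries of MIN6 and liver against at least 497 in each TruSeq or v1.5 MIN6 library and 410 in TruSeq liver. The samples carried the miRNAs of their tissue. The beta-cell miRNA miR-375-3p was at 64766 rpm or more (reads at the 5′ end scaled to the library total) in every MIN6 library and at 36.9 and 26.6 in liver. The hepatocyte miRNA miR-122-5p was at 15906 and 531049 in liver, at most 2.28 in the 6 GAIIx libraries and at 127 in NEXTflex MIN6. In bulk tissue, fewer cells of a type and less RNA per cell cannot be told apart.

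The commonest U-ended form of the miRNAs with most U-ended reads is shown first. The bases are those of the RefSeq hairpin, read from its 5′ end on GRCm38, with the seed in capitals and the untemplated last base as a capital U. The token before each position gives the base that the hairpin has at the last place, its position counted from 1 at the 5′ end of the read, and the base of the read. The interval is that of the templated bases.
miR-375-3p, G23U, chr1:74900661-74900682 (-): uUUGUUCGuucggcucgcgugaU
miR-27b-3p, A22U, chr13:63300760-63300780 (+): uUCACAGUggcuaaguucugcU
miR-24-3p, G23U, chr13:63301251-63301272 (+): uGGCUCAGuucagcaggaacagU
miR-192-5p, A22U, chr19:6264857-6264877 (+): cUGACCUAugaauugacagccU
miR-127-3p, G23U, chr12:109592888-109592909 (+): uCGGAUCCgucugagcuuggcuU
let-7i-5p, G23U, chr10:122985698-122985719 (-): uGAGGUAGuaguuugugcuguuU
miR-148b-3p, C23U, chr15:103285185-103285206 (+): uCAGUGCAucacagaacuuuguU
miR-200c-3p, A23U, chr6:124718325-124718346 (-): uAAUACUGccggguaaugauggU

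The second set is of the miRNAs with the highest mean share among those with many reads, shown because their U-ended form made up a large part of the reads.
miR-488-3p, A22U, chr1:158505689-158505709 (+): uUGAAAGGcuguuucuuggucU
miR-345-3p, A22U, chr12:108837026-108837046 (+): cCCUGAACuaggggucuggagU
miR-652-3p, C22U, chrX:142739060-142739080 (+): aAUGGCGCcacuaggguugugU
miR-23b-3p, G24U, chr13:63300529-63300551 (+): aUCACAUUgccagggauuaccacU
miR-667-3p, G24U, chr12:109720061-109720083 (+): uGACACCUgccacccagcccaagU
By the GENCODE M21 annotation of GRCm38, miR-27b and miR-24-1 overlap exons and miR-23b an intron of 2010111I01Rik, miR-148b lies in an intron of Copz1, miR-127 antisense to an exon of Rtl1, let-7i in an exon of D630033A02Rik and miR-200c in an intron of Gm15884, while miR-375, miR-192 and miR-667 lie outside other genes. The rule requires another base than U at the last place of the genome. At the 375 members placed on a hairpin with that base inside it, the base was A in 112, C in 126 and G in 137.

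The members were for the most part miRNAs. Of the 558, 374 were placed on 179 miRNA hairpins, which gave 235 mature miRNA names. Another 3 lay on other small RNA genes (the Y RNAs Rny1 and Rny3 and the small nucleolar RNA Snord60), and 181 were not placed. Of the placed members, 234 were placed by the mismatches that their other reads report and 143 from a placed neighbour on the same hairpin. The unplaced ones held 2.16% of the members' U-ended reads. The U-ended reads were concentrated: 176 members had at least 1000 of them, 55 had at least 10000, and the 10 5′ ends with most held 48.4%. Of the members on miRNAs, 252 were the commonest 5′ end of their arm and 122 were shifted from it, 55 of them by 1 nt downstream and 30 by 1 nt upstream. Upstream and downstream are counted from the commonest 5′ end in these libraries, which is not always the annotated one. In 79 of the 119 shifted members whose main 5′ end was also a member, the commonest U-ended reads of both stopped at the same genomic position. miR-375-3p is an example, since reads that began 1 and 2 nt downstream had U-ended forms of 22 and 21 nt against 23 nt at the main 5′ end. Those that began 1 nt upstream also had a U-ended form of 23 nt, and so stopped at another position.

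The 3p arm, which carries the 3′ end of the precursor after Drosha cleavage, was more often a member than the 5p arm. Of the placed miRNA 5′ ends with at least 1000 reads, 202 of 277 on 3p arms (72.9%) and 144 of 283 on 5p arms (50.9%) were members. Over these 5′ ends, members or not, the median share on 3p arms was 5.76, 6.32 and 6.21% in the TruSeq MIN6 libraries against 0.806, 0.952 and 0.84% on 5p arms. In the v1.5 libraries it was 4.87, 4.94 and 4.72% against 0.921, 0.926 and 0.908%. The medians were higher on 3p arms in each of the 9 libraries, TruSeq liver having the highest (11.6% against 1.91%) and NEXTflex liver the lowest 3p median (0.459% against 0.0103%). These medians are taken over 5′ ends with at least 100 reads in the library, between 101 and 250 an arm, with no test.

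U-ended reads were longer than the exact reads of the same 5′ end by 1 nt most often. The commonest U-ended length exceeded the commonest exact length by 1 nt in 263 of the 556 members with exact reads, by 2 nt in 109, and was the same in 110. A U on top of the commonest exact form gives the first of these, and a U on a form that is 1 nt longer or shorter gives the others. Reads of 23 nt made up 50.3% of the members' U-ended reads, those of 22 nt 24.6% and those of 24 nt 12.1%. miR-27b-3p was among the members with a longer step, since its commonest U-ended reads had 22 nt and its commonest exact reads 20 nt.

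**Figure D1:**
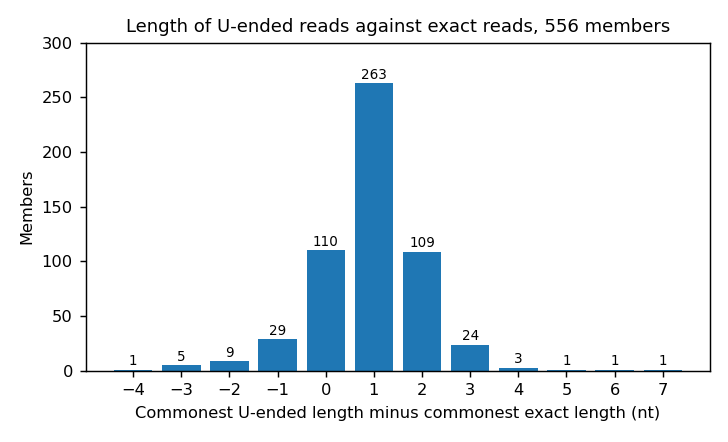
Number of members (y axis) by the commonest length of U-ended reads minus the commonest length of exact reads at the same 5′ end, in nt (x axis), over the 556 members with exact reads. The bar at 1 nt is the highest, with 263 members, and those at 0 and 2 nt hold 110 and 109.

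A uridine added where the genome itself has U is a match and is not counted, so the base after the mature 3′ end bears on the share by the definition used. Among placed miRNA 5′ ends with at least 1000 reads, 78 of 178 with U after the commonest exact 3′ end were members (43.8%) against 268 of 376 with another base (71.3%). The median shares of the former were between 0.298% and 0.415% in the 6 GAIIx libraries. Among the other bases, the order of the medians differed between the protocols. In the TruSeq MIN6 libraries the medians were 8.51, 7.57 and 7.07% before A, 5.5, 5.79 and 6.21% before C and 3.76, 3.64 and 3.0% before G. In the v1.5 libraries they were 3.81, 3.97 and 3.71% before A, 4.25, 4.01 and 4.05% before C and 5.09, 5.36 and 5.26% before G. Thus 5′ ends followed by A had higher medians in each TruSeq than in each v1.5 library, and those followed by G had lower ones. TruSeq liver had the order of TruSeq MIN6, with 12.1%, 9.34% and 5.34%. These are medians over different miRNAs that share libraries, given with no test.

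**Figure D2:**
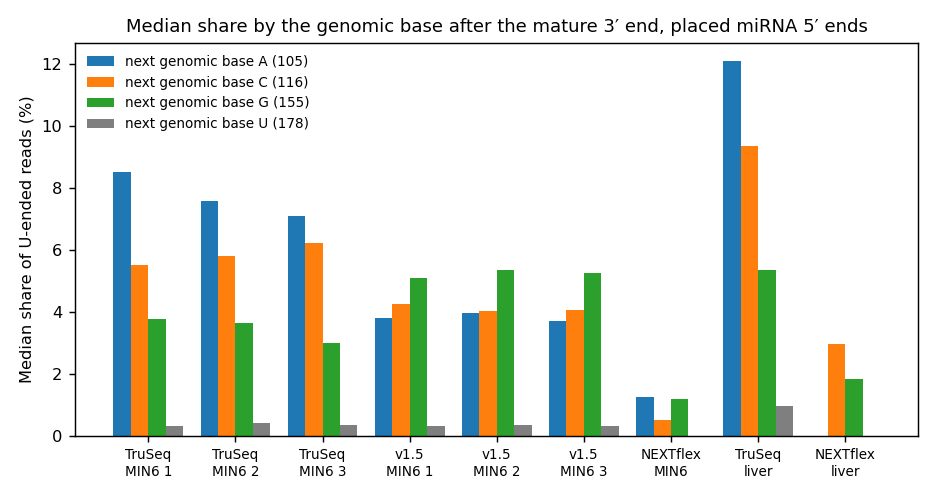
Median share of U-ended reads in percent (y axis) in each of the 9 libraries (x axis), for placed miRNA 5′ ends grouped by the genomic base after the commonest exact 3′ end, with the number of 5′ ends in the legend. Bars before U (grey) are the lowest or at 0 in each library, and the order A over C over G of the TruSeq libraries is not that of the v1.5 libraries.

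U was the commonest untemplated last base at most members. It led the other 3 bases at 444 of 558 members (79.6%), A led at 107, G at 4 and C at 3. Among all 5′ ends with at least 1000 reads and any such read, U led at 1041 of 2854 (36.5%) and A at 1164, but since the rule selected members on U, their higher proportion is no result. Pooled over the libraries, the median member had 9.2% of reads with a last U, 1.73% with a last A, 0.0871% with a last G and 0.0723% with a last C. A mismatched U at the base before the last, which the rule did not use, had a median of 0.0572%. The rule selected on the last base, so these medians are not compared. The members with more A than U included some of the most read miRNAs. miR-122-5p, which regulates lipid metabolism in liver, had 16% A-ended and 1.65% U-ended reads pooled over the libraries and mostly from NEXTflex liver, where it was at 531049 rpm against 15906 rpm in TruSeq liver. let-7b-5p had 5.5% and 2.51%, and let-7g-5p 3.01% and 0.238%.

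The member with most U-ended reads was miR-375-3p, a miRNA abundant in beta cells that restrains insulin secretion. U-ended reads were 2.81, 2.51 and 2.6% of its reads in TruSeq, 6.57, 6.98 and 6.93% in v1.5 and 5.91% in NEXTflex MIN6. All 3 v1.5 libraries were above all TruSeq libraries, and the liver libraries, with only 13 and 7 U-ended reads, were at 1.97% and 1.82% (95% Clopper-Pearson intervals 1.05% to 3.35% and 0.736% to 3.72%). Such intervals cover counting error only. For miR-27b-3p, a regulator of lipid genes, the shares were 5.55, 5.71 and 5.58% in TruSeq, 11.8, 12.2 and 12% in v1.5, and 9.35% in NEXTflex MIN6, 11.7% in TruSeq liver and 11.8% in NEXTflex liver. TruSeq MIN6 was the low group, and the other 6 libraries lay between 9.35% and 12.2%. miR-24-3p, the third miRNA of the miR-23b/27b/24 cluster, is encoded by 2 copies whose reads were divided evenly. Its share was 28.5, 29.3 and 30.2% in TruSeq, 29.3, 30.8 and 30.9% in v1.5, and 32.5% in NEXTflex MIN6, 45.1% in TruSeq liver and 36.9% in NEXTflex liver. The MIN6 libraries of both Illumina kits overlapped, and both liver libraries were higher. miR-23b-3p of the same cluster had 28.7, 28.8 and 28.5% in TruSeq, 20.3, 20.5 and 20.1% in v1.5, and 35.6% in NEXTflex MIN6, 46.7% in TruSeq liver and 32.3% in NEXTflex liver. Here the v1.5 libraries were the lowest of the 9.

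Other members with many U-ended reads differed by library in ways of their own. miR-200c-3p, which maintains the epithelial state by repressing Zeb1 and Zeb2, had 11.3, 11.3 and 10.2% in TruSeq, 5.73, 5.95 and 5.82% in v1.5, and 9.62% in NEXTflex MIN6, 17.6% in TruSeq liver and 1.2% in NEXTflex liver. All TruSeq libraries exceeded all v1.5 libraries. miR-148b-3p had 25.5, 24.2 and 25% in TruSeq, 30.7, 32.3 and 31.9% in v1.5, and 33.6% in NEXTflex MIN6, 16.4% in TruSeq liver and 26.4% in NEXTflex liver, so that v1.5 was higher in MIN6 and TruSeq liver was the lowest library. miR-127-3p, an imprinted miRNA antisense to Rtl1, had 8.69, 8.89 and 8.82% in TruSeq, 10.3, 10.6 and 10.6% in v1.5, 10.9% in NEXTflex MIN6 and 11.6% in TruSeq liver, and NEXTflex liver had 0 U-ended among 214 reads. miR-320-3p, which is made without Drosha, was nearly level, with 20.8, 22.5 and 22.4% in TruSeq, 22.9, 24.5 and 24.3% in v1.5, and 23.6% in NEXTflex MIN6, 23.2% in TruSeq liver and 26.9% in NEXTflex liver. The lowest and highest of its 9 shares were 20.8% and 26.9%. miR-192-5p, a miRNA of liver, gut and kidney driven by HNF1, had 5.1, 4.83 and 4.62% in TruSeq, 3.97, 3.97 and 3.69% in v1.5, and 0.675% in NEXTflex MIN6, 11.8% in TruSeq liver and 3.37% in NEXTflex liver. TruSeq liver, where most of its reads lay, was the highest library. miR-122-5p had 6165 U-ended reads in TruSeq liver (2.17%) and 124795 in NEXTflex liver (1.63%), and its hairpin sequence is not printed here.

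At some members the U-ended form made up most of the reads. The mean share over the libraries was above 50% at 42 members, of which 18 lay on a miRNA and 16 had at least 1000 reads. Among the members on miRNAs with a mean of at least 1000 reads a library, the highest mean shares were those of miR-488-3p (58.7%), miR-345-3p (54%) and miR-652-3p (47.5%). miR-488-3p, from an intron of the neuronal gene Astn1, had 71.3, 67.6 and 67.7% in TruSeq and 68.2, 71.5 and 70.5% in v1.5, and the 6 libraries overlapped. NEXTflex MIN6 stood apart with 10.3% (393 of 3816 reads, interval 9.35% to 11.3% for counting error only, 1 library). The shares of miR-652-3p, from an intron of Tmem164, were 45.6, 41.1 and 41.3% in TruSeq, 40.5, 44.8 and 42.8% in v1.5, and 69.6% in NEXTflex MIN6, 47.8% in TruSeq liver and 54.2% in NEXTflex liver. The libraries of both Illumina kits overlapped and NEXTflex MIN6 was the highest. For miR-345-3p, from an intron of Slc25a47, the shares were 58.6, 54.5 and 59.7% in TruSeq, 35.9, 38.3 and 40.9% in v1.5, 84.4% in NEXTflex MIN6 and 59.3% in TruSeq liver. All v1.5 libraries were below all others, and NEXTflex liver had no read. miR-667-3p of the imprinted Dlk1-Dio3 cluster had 35.4, 33.3 and 32.2% in TruSeq, 34.9, 33.5 and 32.6% in v1.5 and 51.3% in NEXTflex MIN6. TruSeq liver had 17.1% on few reads (7 of 41, interval 7.15% to 32.1%). miR-486-5p, an erythroid miRNA whose reads also match the overlapping antisense gene of miR-3107-5p and were divided between them, had 28.5% in NEXTflex MIN6, 27.5% in TruSeq liver and 26.7% in NEXTflex liver and at most 404 reads in a GAIIx library. Of the miR-210-3p reads, a miRNA induced by hypoxia, those that began 1 nt upstream of the main 5′ end reached 32.1, 31.9 and 33.1% in TruSeq, 23.3, 24.6 and 24.7% in v1.5 and 8.66% in NEXTflex MIN6.

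**Figure D3:**
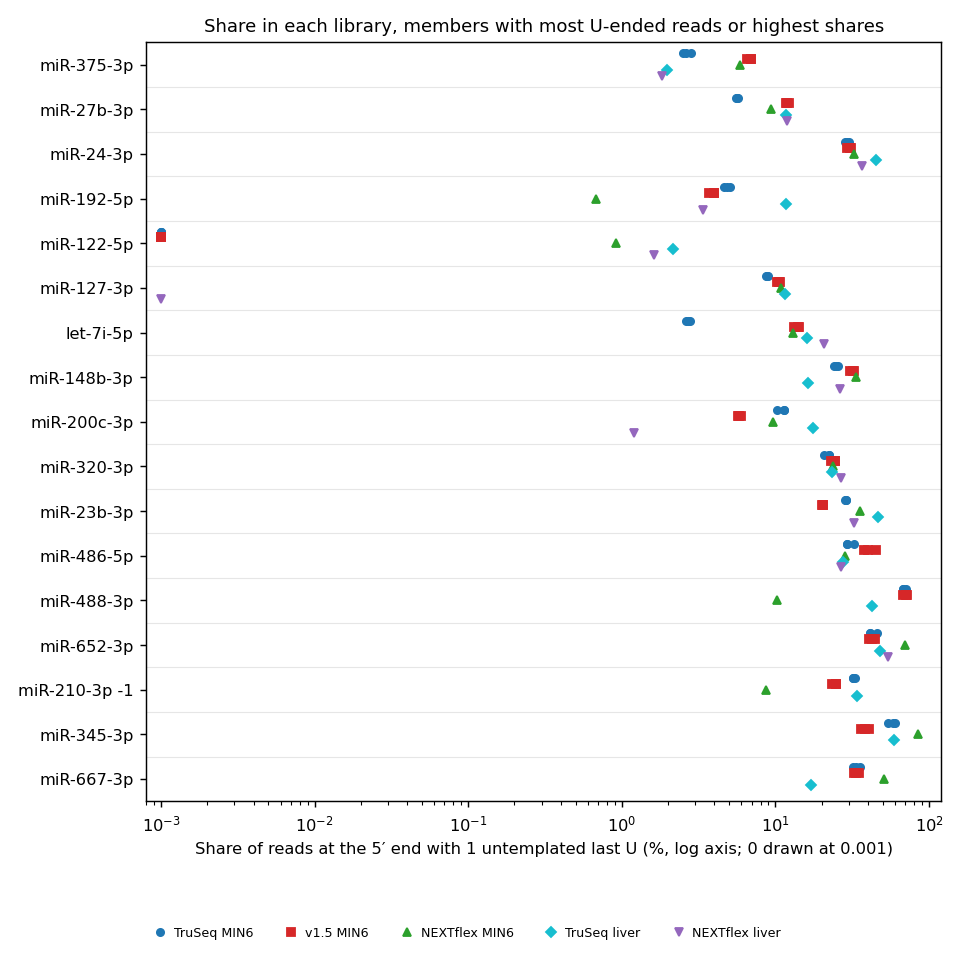
Share of U-ended reads in percent on a log axis (x axis) for the members with most U-ended reads or the highest shares (y axis), with 1 symbol per library. Libraries with a share of 0 are drawn at 0.001, and those with no reads are left out. The 3 libraries of a group lie close together, while miR-375-3p, let-7i-5p and miR-27b-3p are lower in TruSeq than in v1.5 MIN6 and miR-200c-3p, miR-23b-3p and miR-345-3p are higher.

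The let-7 family, which restrains growth and shares the seed GAGGUAG, had members on both arms with very unlike shares. The RefSeq hairpin bases of the 5p arms are shown with bases 23 to 25 in capitals, because these decide whether a U after the 22 nt of the mature form can be seen as untemplated.
let-7a-5p of Mirlet7a-2, chr9:41536732-41536756 (+): ugagguaguagguuguauaguuUAG
let-7b-5p of Mirlet7b, chr15:85707325-85707349 (+): ugagguaguagguugugugguuUCA
let-7c-5p of Mirlet7c-1, chr16:77599672-77599696 (+): ugagguaguagguuguaugguuUAG
let-7d-5p of Mirlet7d, chr13:48536075-48536099 (-): agagguaguagguugcauaguuUUA
let-7e-5p of Mirlet7e, chr17:17830366-17830390 (+): ugagguaggagguuguauaguuGAG
let-7f-5p of Mirlet7f-1, chr13:48537886-48537910 (-): ugagguaguagauuguauaguuGUG
let-7f-5p of Mirlet7f-2, chrX:151912353-151912377 (+): ugagguaguagauuguauaguuUUA
let-7g-5p of Mirlet7g, chr9:106178846-106178870 (+): ugagguaguaguuuguacaguuUGA
let-7i-5p of Mirlet7i, chr10:122985695-122985719 (-): ugagguaguaguuugugcuguuGGU
miR-98-5p of Mir98, chrX:151913229-151913253 (+): ugagguaguaaguuguauuguuGUG
Base 23 is G in let-7e, let-7f-1, let-7i and miR-98 and U in the others. A let-7f read with U at base 23 matches Mirlet7f-2 in full, so that it would not be counted at Mirlet7f-1 either. let-7b lies in an exon of Lncppara, let-7e in an intron of Spaca6, let-7g in an intron of Wdr82, and miR-98 and let-7f-2 in introns of Huwe1.

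At the commonest 5′ ends of the 5p arms, let-7i-5p, miR-98-5p and let-7e-5p had the highest shares in the MIN6 libraries. let-7i-5p had 2.78, 2.7 and 2.64% in TruSeq, 13.3, 14.2 and 14% in v1.5, and 13.1% in NEXTflex MIN6, 16.1% in TruSeq liver and 20.7% in NEXTflex liver. miR-98-5p had 1.76, 1.86 and 1.74% in TruSeq, 12.2, 11.9 and 12% in v1.5, and 7.25% in NEXTflex MIN6, 5.67% in TruSeq liver and 0.172% in NEXTflex liver. Both were lower in every TruSeq MIN6 library than in every v1.5 library. let-7e-5p had 3.24, 3.5 and 3.54% in TruSeq, 3.25, 3.36 and 3.37% in v1.5, and 5.56% in NEXTflex MIN6, 5.34% in TruSeq liver and 5.9% in NEXTflex liver, with overlap between the Illumina kits. let-7b-5p had 0.739, 0.745 and 0.683% in TruSeq, 0.889, 0.945 and 0.87% in v1.5, and 2.62% in NEXTflex MIN6, 2.89% in TruSeq liver and 4.42% in NEXTflex liver, and its commonest U-ended reads had 24 nt. At the same 5′ ends, the 5p arms of the let-7a-2, let-7c-1, let-7c-2, let-7d, let-7f-1, let-7f-2 and let-7g hairpins were between 0% and 0.17% in the MIN6 libraries and reached 0.936% in liver (let-7g-5p in NEXTflex). The 5′ end 1 nt upstream of let-7c-5p at Mirlet7c-1, also a member, had 6.56% in NEXTflex MIN6 and 0 in the other MIN6 libraries.

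Among the 3p arms of let-7, 6 hairpins had shares above 20% in every TruSeq and v1.5 MIN6 library. These arms hold few reads; their U-ended forms are shown because all 6 have C at the last place in the hairpin.
let-7b-3p, C22U, chr15:85707379-85707399 (+): cUAUACAAccuacugccuuccU
let-7f-1-3p, C22U, chr13:48537834-48537854 (-): cUAUACAAucuauugccuuccU
let-7f-2-3p, C22U, chrX:151912403-151912423 (+): cUAUACAGucuacugucuuucU
let-7g-3p, C22U, chr9:106178903-106178923 (+): cUGUACAGgccacugccuugcU
let-7c-2-3p, C22U, chr15:85706664-85706684 (+): cUAUACAAucuacugucuuucU
let-7e-3p, C22U, chr17:17830411-17830431 (+): cUAUACGGccuccuagcuuucU
let-7f-2-3p had 86, 88.5 and 94% in TruSeq and 30.9, 36 and 42.2% in v1.5, on 200 to 358 and 83 to 91 reads. let-7f-1-3p had 68.2, 74.7 and 73.7% and 56, 49.7 and 55%, and let-7b-3p 63.8, 58.9 and 58% and 42, 44.6 and 47.4%. let-7g-3p had 45.1, 45.8 and 38.5% and 25.9, 27.7 and 27%. These 4 are 3p arms of precursors with the short overhang (group II of a list drawn from textbook knowledge), and in all 4 every TruSeq library exceeded every v1.5 library. Of the other group II arms, 3 with at least 1000 reads were not members. They were let-7d-3p, with 0.117, 0.29 and 0.112% in TruSeq and 0.249, 0.439 and 0.321% in v1.5, let-7i-3p, with 1.24, 1.03 and 1.25% and 2.43, 0.778 and 1.85%, and miR-98-3p, with 0.704, 0.478 and 0% and 2.74, 0 and 2.61%. The 5′ end 1 nt downstream of miR-98-3p, also no member, had 2.35, 1.1 and 3.06% and 5.88, 10.5 and 4.13%. The shares of let-7i-3p and of the main 5′ end of miR-98-3p were below those of their 5p arms in TruSeq. In the TruSeq and v1.5 MIN6 libraries group II thus held both the highest and the lowest of these 3p shares. Of the group I precursors, which have the longer overhang, let-7e-3p was a member, with 24.1, 27.6 and 21.4% in TruSeq and 20.1, 24.4 and 20.6% in v1.5. let-7c-2-3p, on neither list, had 45.6, 44.1 and 48.6% and 29.3, 33.3 and 32.9%. TruSeq liver had 72.9% at let-7b-3p, 93.2% at let-7f-2-3p, 68.7% at let-7f-1-3p, 67.3% at let-7c-2-3p, 47.4% at let-7e-3p and 40.5% at let-7g-3p. Those of let-7f-1-3p, let-7f-2-3p and let-7g-3p were within the range of TruSeq MIN6, and the other 3 were above it. NEXTflex MIN6 had 32.5% at let-7b-3p, 51.5% at let-7c-2-3p, 82.4% at let-7g-3p, 0 U-ended of 333 reads at let-7e-3p and no read at let-7f-1-3p and let-7f-2-3p. NEXTflex liver had 43.9% at let-7c-2-3p and no read at the other 5.

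**Figure D4:**
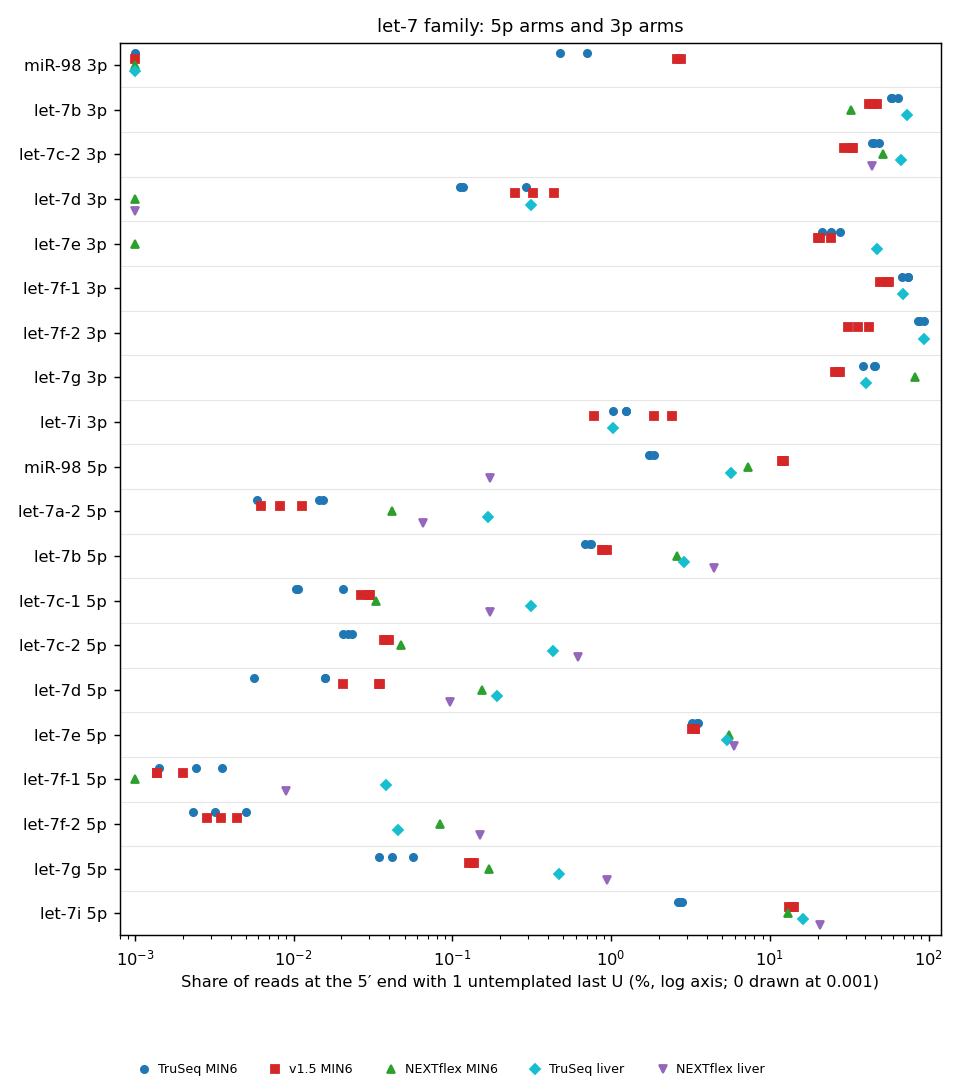
Share of U-ended reads in percent on a log axis (x axis) at the commonest 5′ end of each let-7 and miR-98 arm with at least 1000 reads (y axis), with 1 symbol per library, 0 drawn at 0.001 and libraries without reads left out. The 3p arms of let-7b, let-7c-2, let-7e, let-7f-1, let-7f-2 and let-7g lie above 20% in all TruSeq and v1.5 MIN6 libraries, while all 5p arms lie below 15% there.

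The comparison of v1.5 with TruSeq in MIN6, the only one with replicates, asks whether the kit changed the share of U-ended reads at a given 5′ end. The shares differed at most of the members tested, in both directions. The test was fitted to all 621 5′ ends with at least 1000 reads and at least 10 U-ended reads in the 6 libraries (edgeR quasi-likelihood test, all reads of the 5′ end as offset), and 58.3% of them were called at an adjusted p under 0.05, 26.1% higher in v1.5 and 32.2% lower. Of the 395 members tested, 284 were called (71.9%), 115 higher in v1.5 and 169 lower, and 163 members had too few reads in these libraries to be tested. More U-ended reads make a call easier, and the members were selected for having them. Of the called members, 56 reached 100 U-ended reads only with those of the kit in which their share was higher, and for them the call uses the reads that selected them. When U-ended reads were instead scaled to the library by TMM or by its total, which measures their abundance and not their share, 453 and 459 5′ ends were called, 55.2% and 57.1% of them higher in v1.5 against 44.8% by share. The shares of 155 called members differed by more than 2-fold, 64 being higher in v1.5 and 91 lower. That count was not made over all 5′ ends tested, so that it is a description and no result about the members. The median log2 fold change was -0.23 over the tested members and -0.18 over all 5′ ends tested. Replicates were close: over the 176 members with at least 1000 U-ended reads the SD was 5.77% of the mean in TruSeq and 4.43% in v1.5 (medians).

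**Figure D5:**
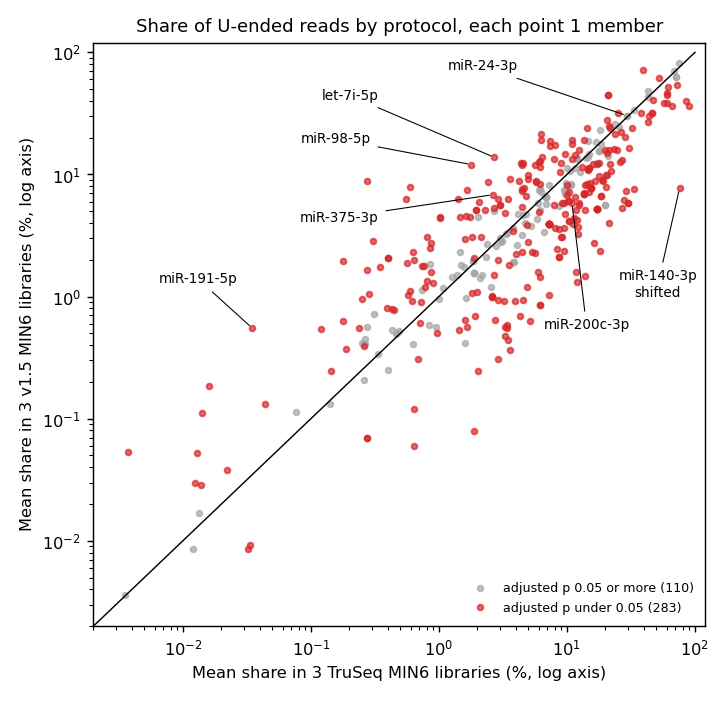
Mean share of U-ended reads in 3 TruSeq (x axis) and 3 v1.5 MIN6 libraries (y axis), in percent on log axes, for the 393 tested members with a mean above 0 in both; the line marks equal shares and red points had an adjusted p under 0.05. let-7i-5p, miR-98-5p, miR-375-3p and miR-191-5p lie above the line, and miR-200c-3p and the shifted 5′ end of miR-140-3p below it.

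The members with most U-ended reads and the let-7 and miR-26 families are taken first. The log2 fold change of the share, v1.5 over TruSeq, was 2.35 (SE 0.04, adjusted p = 2.46e-16) for let-7i-5p, whose shares were 2.71% ± 0.0738 in TruSeq and 13.8% ± 0.465 in v1.5 (SD, n = 3 each). For miR-98-5p it was 2.76 (SE 0.05, adjusted p = 2.46e-16). miR-375-3p rose by 1.37 (SE 0.04, adjusted p = 4.12e-13) and miR-27b-3p by 1.09 (SE 0.03, adjusted p = 2.28e-13). miR-26a-5p, a growth-restraining miRNA with 2 copies in Ctdsp-family introns, rose by 0.90 (SE 0.04, adjusted p = 1.26e-11) at the Mir26a-2 copy, a call that was lost on whole-number counts (0.39), while its relative miR-26b-5p was not called, with a log2 fold change of 0.04 (SE 0.05, adjusted p = 0.482). Shares fell in v1.5 for miR-200c-3p, by 0.90 (SE 0.04, adjusted p = 4.38e-11), for miR-345-3p, with a log2 fold change of -0.59 (SE 0.06, adjusted p = 1.38e-06), and for miR-23b-3p, with -0.50 (SE 0.03, adjusted p = 1.34e-09). Smaller changes were called for miR-148b-3p (0.34), miR-192-5p (-0.31), miR-127-3p (0.26) and miR-320-3p (0.12). The call of miR-320-3p was lost without TruSeq replicate 1 (0.09), v1.5 replicate 2 (0.11) or v1.5 replicate 3 (0.11), and also on reads of 20 to 24 nt (0.07), on whole-number counts (0.13) and with limma (0.16), and miR-148b-3p turned to -1.63 with exact reads as denominator. miR-24-3p, miR-488-3p, miR-652-3p and miR-667-3p were not called, with log2 fold changes of 0.04, 0.03, 0.01 and 0.01 and SEs of 0.04, 0.04, 0.05 and 0.06. With exact reads as denominator miR-24-3p (0.08) and miR-488-3p (0.15) were called. On the let-7 3p arms the share fell in v1.5 at let-7b-3p (-0.43), let-7f-1-3p (-0.43), let-7f-2-3p (-1.33), let-7g-3p (-0.64) and let-7c-2-3p (-0.55), with adjusted p between 2.66e-07 and 0.00102, the call of let-7c-2-3p being lost on whole-number counts (-2.42). On the 5p arms tested, let-7i-5p, miR-98-5p, let-7g-5p (1.51), let-7b-5p (0.33), let-7c-5p (1.14 at Mirlet7c-1 and 0.83 at Mirlet7c-2) and let-7d-5p (1.20) rose, let-7b-5p turning to -1.07 on whole-number counts and losing its call with limma (0.32), and let-7e-5p (-0.05), let-7a-5p (-0.45) and let-7f-5p (0.16) were not called. The call of let-7d-5p, which had the highest adjusted p of these (0.0301), was lost with DESeq2, with limma, on reads of 20 to 24 nt, on whole-number counts (1.23) and without TruSeq replicate 2 (0.94), TruSeq replicate 3 (1.47), v1.5 replicate 1 (1.08) or v1.5 replicate 2 (1.11).

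The largest fold changes were at members with low shares or few reads.
miR-191-5p, G23U, chr9:108568325-108568346 (+): cAACGGAAucccaaaagcagcuU
miR-99a-5p, G23U, chr16:77598940-77598961 (+): aACCCGUAgauccgaucuugugU
miR-22-3p, G24U, chr11:75463772-75463794 (+): aAGCUGCCaguugaagaacuguuU
miR-140-3p, 1 nt downstream, A22U, chr8:107551290-107551310 (+): cCACAGGGuagaaccacggacU
miR-194-5p of Mir194-1, C23U, chr1:185313325-185313346 (+): uGUAACAGcaacuccauguggaU
miR-194-5p of Mir194-2, A23U, chr19:6264658-6264679 (+): uGUAACAGcaacuccauguggaU
miR-191 lies in an exon of the lincRNA 4833445I07Rik, miR-99a in an intron of Mir99ahg, miR-22 in an exon of Mir22hg and miR-140 in an exon of Wwp2. miR-191-5p had 0.0281, 0.0385 and 0.0376% in TruSeq and 0.57, 0.55 and 0.537% in v1.5, with a log2 fold change of 3.96 (SE 0.09, adjusted p = 1.34e-14), and its 13368 reads in NEXTflex MIN6 held 1 U-ended read. miR-22-3p, among the most read miRNAs in TruSeq, had 0.00428, 0.00347 and 0.00351% and 0.0477, 0.0424 and 0.0698%, and its U-ended reads were few (40 in TruSeq and 58.5 in v1.5). For miR-99a-5p, 2 U-ended of 874 TruSeq reads stood against 451 of 5082 v1.5 reads, a ratio of shares of 38.8 with a counting interval from 10.7 to 321. The 5′ end of let-7i-5p that began 3 nt downstream had 0 U-ended of 85 reads in TruSeq and 182 of 1370 in v1.5, at least 3.77-fold higher when 3 counts over the group are put in place of 0. The annotated 5′ end of miR-376a-5p, which lies 1 nt upstream of the commonest one in these libraries, had 8 U-ended reads in TruSeq (0.596%, mean share) and 143 in v1.5 (7.92%). miR-22-3p, miR-376a-5p and the downstream 5′ end of let-7i-5p became members only through their v1.5 reads, so that their values are a description with no test.

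In the other direction, the 5′ end 1 nt downstream of miR-140-3p had 78.2, 75.4 and 73.8% in TruSeq and 7.73, 6.58 and 8.82% in v1.5, with a log2 fold change of -3.28 (SE 0.12, adjusted p = 3.29e-12). It had 84.6% in TruSeq liver and 1 U-ended of 232 reads in NEXTflex MIN6, so that both TruSeq sample types were high and the other protocols low. At the main 5′ end of miR-140-3p, a miRNA known for its role in cartilage, the shares were 9.23, 11.9 and 12.6% and 3.78, 3.87 and 4.14%. miR-20a-5p had 5 U-ended reads in TruSeq and 14 in v1.5, on few TruSeq reads (77, 85 and 153), with a log2 fold change of -4.27 (SE 0.83, adjusted p = 4.24e-04). miR-137-3p fell in v1.5, with a log2 fold change of -3.29 (SE 0.36, adjusted p = 1.18e-06). miR-434-5p, a member only through its TruSeq reads, had mean shares of 0.639% in TruSeq and 0.0603% in v1.5, given with no test. For miR-194-5p, a liver and gut miRNA whose 2 copies differ at base 23, the U-ended share at Mir194-1 was 5.22, 2.51 and 3.12% in TruSeq and 0.295, 0.405 and 0.402% in v1.5 (log2 fold change -3.21, SE 0.35, adjusted p = 1.18e-06), a call that was lost on whole-number counts (-2.96).

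Over all nuclear reads of 18 to 25 nt the U-ended share was 3.21%, 3.18% and 3.21% in TruSeq MIN6 and 3.87%, 4.06% and 4.08% in v1.5. The groups did not overlap and differed by 0.801 percentage points (exact two-sided permutation test, p = 0.10, the smallest that 3 against 3 libraries allow). miR-375-3p carries much of this, since without its main 5′ end the difference was 0.368. When each 5′ end with at least 1000 reads counted once the difference turned, to -0.325 percentage points (1.26% in v1.5 against 1.58%), and the median share over the members was lower in every v1.5 library (4.99, 5.01 and 5.35%) than in every TruSeq library (6.16, 6.33 and 7.14%). The G-ended share differed far more, being 3.67% ± 0.167 in TruSeq and 0.0752% ± 7.20e-04 in v1.5. At the main 5′ end of miR-375-3p, 7.72% of reads pooled over the libraries were G-ended. This 5′ end was at 156552 to 178727 rpm in TruSeq MIN6 and 69757 to 83984 rpm in v1.5. How much of the G-ended difference it carries was not tested. The A-ended share was 1.31% ± 0.0143 in TruSeq and 2.06% ± 0.0663 in v1.5, and the C-ended share 0.146% ± 0.00436 and 0.122% ± 0.00135 (SD, n = 3 each). Each of these had the same exact permutation p of 0.10, and 0.10 also after Benjamini-Hochberg adjustment over the 4 last bases.

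NEXTflex MIN6 and the 2 liver libraries are single libraries, and their values have no replicate check. In NEXTflex MIN6, U-ended reads were 2.74% of the nuclear reads of 18 to 25 nt. Of the 149 members with at least 1000 reads in all 7 MIN6 libraries, 64 had a higher share in NEXTflex than in any of the 6 others, 50 a lower one and 35 one within their range. Over all 162 5′ ends with these reads and at least 10 U-ended reads there, 39.5% were above and 37.7% below, and 149 of them are the members. The median shares of these members were 2.71% in TruSeq, 2.09% in v1.5 and 2.61% in NEXTflex. The miR-26 family was among the higher ones, with 9.84% for miR-26a-5p and 9.54% for miR-26b-5p against at most 5.71% and 4.96% in the others. miR-192-5p (0.675%) and miR-488-3p were among the lower ones.

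Liver had higher shares than MIN6 at most members under the TruSeq protocol. Of the 79 members with at least 1000 reads in TruSeq liver and in each TruSeq MIN6 library and at least 10 U-ended reads in each sample type, 67 were higher in liver, 38 of them by more than 2-fold, and the median ratio was 1.78. Over all 82 5′ ends that met these limits 85.4% were higher in liver and 47.6% by more than 2-fold. With NEXTflex 50 of 70 were higher in liver under the same limits, with a median ratio of 1.25. The limit of 10 U-ended reads left out 36 of the 106 NEXTflex members with 1000 reads, 23 having too few in liver and 20 in MIN6, with some in both counts. Without that limit 63 of the 106 were higher in liver, 38 lower and 5 at 0 in both, against 73 higher and 12 lower of 85 with TruSeq. All 5′ ends that met the limits with NEXTflex were members, so that the same 71.4% were higher over all of them and 28.6% by more than 2-fold. Of the 49 members with both ratios, 35 were higher in liver with both kits, 5 lower with both, and 6 were higher with TruSeq and lower with NEXTflex, and 3 the reverse. Each ratio rests on 1 liver library, and the TruSeq libraries of the 2 sample types were run on different instruments. RNA isolation may differ between them as well, with TRIzol given for NIH and the Norgen kit for liver. The sample type cannot be told apart from these. Over all nuclear reads of 18 to 25 nt, U-ended reads were 6.2% in TruSeq liver and 2.71% in NEXTflex liver, and A-ended reads 3.9% and 12.5%. Such shares depend on which miRNAs a library holds. miR-122-5p, with 16% A-ended reads pooled over the libraries, was at 531049 rpm in NEXTflex liver. The main 5′ end of miR-192-5p held 159962 U-ended reads in TruSeq liver. U mismatches at the base before the last were also the most frequent in TruSeq liver, at 1.21% against 0.244% to 0.264% in TruSeq MIN6, and their part in the result was not tested.

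The largest ratios among the members on miRNAs, with precursor copies counted once, were at members with low shares in MIN6. With TruSeq, miR-99b-5p had 0.308% in MIN6 and 10.3% in liver, a ratio of 33.6. let-7c-5p had 0.0138% and 0.314% at Mirlet7c-1, a ratio of 22.8, and 0.022% and 0.433% at Mirlet7c-2, a ratio of 19.7. let-7g-5p had 0.0441% and 0.468%. With NEXTflex they were higher in liver by 5.18 times at Mirlet7c-1, 13.1 times at Mirlet7c-2 and 5.52 times at let-7g, while miR-99b-5p was lower, with a ratio of 0.795. miR-191-5p (14.7 times) and let-7a-5p of Mirlet7a-2 (14 times) were the other two. With NEXTflex let-7a-5p had a ratio of 1.58, and miR-191-5p had 1 U-ended read in MIN6 and 463 of 2679 reads in liver (17.3%). Within the same limits, the largest NEXTflex ratios were those of miR-425-5p (24.6), miR-21a-5p (15.6), let-7c-5p at Mirlet7c-2 and miR-93-5p (11.7), an oncogenic miRNA of the miR-106b/25 cluster, whose share was 1.57% in MIN6 and 18.4% in liver. The same miRNAs were 3.13, 2.47 and 2.27 times higher in liver with TruSeq (miR-425-5p, miR-21a-5p and miR-93-5p). miR-26b-5p was higher in liver with both, 2.65 times with TruSeq and 2.53 times with NEXTflex.

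Fewer members had lower shares in liver. With TruSeq the lowest ratios were at a pair of 5′ ends that were not placed (0.262 and 0.272), given here because their values were seen to be the lowest. Those on miRNAs were led by miR-27a-3p (14% in MIN6 and 7.75% in liver), miR-152-3p (12% and 7.29%), the 5′ end 1 nt upstream of miR-27b-3p (6.01% and 3.74%), miR-23a-3p (8.91% and 5.69%) and miR-148b-3p (24.9% and 16.4%). The related miR-148b-3p and miR-152-3p, which share a seed, were lower in liver with NEXTflex too, by ratios of 0.787 and 0.805, while miR-148a-3p of the same seed had ratios of 1.32 with TruSeq and 1.06 with NEXTflex. With NEXTflex, and among members with at least 10 U-ended reads in each tissue, the lowest ratios on miRNAs were those of miR-194-5p (0.124 at Mir194-2 and 0.376 at Mir194-1), miR-140-3p (0.219), miR-125a-5p (0.27), miR-361-5p (0.311) and miR-744-5p (0.407), and 1 unplaced 5′ end was at 0.219. Members under that limit in NEXTflex liver have no ratio, among them miR-106b-5p (5.53% in MIN6 and 0 U-ended reads in liver), miR-340-5p (1.18% and 0), miR-25-3p (7.41% and 2), miR-98-5p (7.25% and 8) and miR-30b-5p (1.36% and 1), chosen after their values were seen.

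Among the other families described, miR-7a, abundant in beta and neuroendocrine cells, also had higher shares on its 3p arms than on its 5p arm. At the Mir7-1 copy miR-7a-5p had 0.00698% to 0.0621% in the MIN6 libraries and miR-7b-5p 0.908% to 1.43%. The commonest U-ended reads had 22 nt for miR-7a-5p (G22U) and 25 nt for miR-7b-5p (C25U). As with let-7, a U that matches the hairpin is not counted, and how far this lowers the 5p shares was not tested. On the 3p arms, miR-7a-2-3p had 10.0, 11.6 and 12.2% in TruSeq and 4.19, 4.69 and 4.22% in v1.5 (log2 fold change -1.39, SE 0.09, adjusted p = 1.91e-09), and miR-7a-1-3p 14, 18.7 and 16.9% and 9.07, 8.15 and 9.33% (log2 fold change -0.91, SE 0.13, adjusted p = 2.24e-05). All TruSeq libraries exceeded all v1.5 libraries on both 3p arms, and in NEXTflex MIN6 the shares were 0.0273% of 3664 and 10.1% of 1821 reads. miR-324-3p showed how the share can depend on the 5′ end. At its main 5′ end it had 11.1, 11 and 8.97% in TruSeq, 5.44, 6.27 and 6.5% in v1.5 and 48.7% in NEXTflex MIN6. At the 5′ end 2 nt downstream it had 52.1, 52.5 and 53.1%, 58, 61.9 and 64.7% and 38.8%. The main 5′ end was lower in v1.5 (log2 fold change -0.73, SE 0.12, adjusted p = 1.23e-04) and the downstream one higher (log2 fold change 0.22, SE 0.06, adjusted p = 0.00578).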

How the data were processed

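Small RNA libraries were analysed from 9 deposited alignment tables (7 of MIN6 cells, 2 of liver). Per the labels and the study's methods, the authors trimmed reads with cutadapt (NEXTflex reads also lost the random bases at both ends) and aligned them to mm9 with Bowtie. Each deposited line holds coordinates, a string of mismatches and an expected count, since the authors split multiply mapped reads evenly over their loci. Tool versions are not given in the sources used here. Depth is given by the summed counts of each library in the text, and p-values measure the spread between libraries.

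Lines marked Exact end 1 base early and were lengthened by 1. Edit strings of a number alone were taken as exact. Members and gene lists were chosen with earlier results of these data known. Hairpins of RefSeq and GENCODE M21 (GRCm38) were placed without converting coordinates, by at least 15 kinds of mismatch with at most 0.20% of reads in conflict, or from a placed neighbour on the same hairpin (234 and 143 members). Sequences of chromosome 18 and those missing from the RefSeq table were not printed. U-ended counts were rounded and tested with edgeR 4.0.16 (quasi-likelihood, offset of all reads plus 1, Benjamini-Hochberg over all 5′ ends tested); the test was checked on simulated counts. DESeq2 1.42.0, limma 3.58.1 (0.5 added), other denominators, filters, scalings and leaving out each library were alternatives. R 4.3.3, Python 3.11.15, pandas 2.3.3 and SciPy 1.17.1 were used. Same-kit libraries differed by more than sampling noise (chi-square per degree of freedom 23.1 to 73.2). Named members are those with a miRNA name among the 10 with most U-ended reads, the 10 with the highest mean share at a mean of at least 1000 reads a library, the 5 called with the largest fold change in each direction, the 5 with the largest liver-to-MIN6 ratio in each direction and kit, and the let-7, miR-26, miR-324, miR-122, miR-375 and miR-7 families.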

Additional observations from a re-analysis of the deposited data

Results flagged for a closer look

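Among the named members with at least 1000 reads in both liver libraries, NEXTflex MIN6 and each TruSeq MIN6 library, and at least 10 U-ended reads in each sample type and kit, 5 had a difference between liver and MIN6 in the U-ended share of opposite sign with the 2 kits. Named members below these limits, such as miR-98-5p, were not looked at for this. In percentage points, liver minus MIN6 was 18.1 with TruSeq and -3.34 with NEXTflex for miR-23b-3p, 10.0 and -1.06 for miR-99b-5p, 6.37 and -7.02 for miR-744-5p, and 11.7 and -12.2 for miR-140-3p. For miR-23a-3p it was -3.22 with TruSeq and 4.92 with NEXTflex. The liver library lay on the same side of each TruSeq MIN6 library in all 5, but liver and NEXTflex have 1 library each, and whether the differences differ was not tested.

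Mitochondrial reads, which the rule leaves out, also held U-ended reads of 18 to 25 nt. Their share was highest in v1.5 replicate 3, at 0.101%, and 0.0491% to 0.0589% in the TruSeq MIN6 libraries. NEXTflex liver had 0 U-ended of 43741 mitochondrial reads. All 9 shares were below those over nuclear reads of the same libraries.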

How the results depend on the processing

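The number of members called (284) stayed within 1.5 times under DESeq2 (228), limma (280), exact reads as denominator, reads of 20 to 24 nt and no minimum of U-ended reads. Whole-number counts alone left 185 members and 216 5′ ends called, and a minimum of 10000 reads 149 and 165, on fewer 5′ ends tested. Leaving out 1 library gave 221 to 273 members and 275 to 340 5′ ends of 362. Whether replicate numbers of the 2 kits pair the libraries was not settled. The correlations of same-numbered deviations were small (0.09, 0.03 and 0.13), although each library correlated best with its own number. With the replicate block 286 members and 368 5′ ends were called. Of the members called by edgeR, 228 of 284 were called in the same direction by DESeq2 and 264 by limma, and none changed sign with either.

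The U-ended share over all reads was higher in v1.5 by 0.801 percentage points, by 0.763 to 0.869 without 1 library, 1.3 on whole-number counts, 0.368 without the main 5′ end of miR-375-3p, and the difference turned to -0.325 with each 5′ end counted once. A minimum of 1000 U-ended reads gives 176 members, and at least 100 reads of any kind with any U-ended read gives 6149. U led the last bases at 437 members in the MIN6 libraries and 307 in the liver libraries.

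Scaled to the library by TMM or by the total, U-ended reads measure abundance in place of the share, and 317 and 320 members were called. These scalings moved the median log2 fold change of all 5′ ends tested from -0.18 to 0.24 and 0.31. The log2 fold change then had the opposite sign to that of the share at 84 and 87 of the 284 members called by share. Named members of opposite sign, called by at least 1 of these measures, were miR-27b-3p (-1.10 and -1.03), miR-127-3p (-2.28 and -2.22), miR-200c-3p (2.76 and 2.82), miR-320-3p (-0.26 and -0.20), miR-26a-5p (-1.73 and -1.66), miR-23b-3p (0.43 and 0.49), miR-7b-5p (2.06 and 2.13), let-7e-5p (1.49 and 1.56), miR-210-3p 1 nt upstream (0.36 and 0.42), miR-345-3p (1.48 and 1.55), miR-667-3p (-1.82 and -1.76), miR-20a-5p (0.91 and 0.98), miR-324-3p (0.41 and 0.48), let-7g-3p (0.31 and 0.38), let-7a-5p (2.19 and 2.26), miR-7a-5p (0.14 and 0.21), miR-26b-3p (-2.58 and -2.50), miR-137-3p (1.74 and 1.82). With the share, miR-148b-3p was at -1.63 with exact reads as denominator and let-7b-5p was at -1.07 with whole-number counts only; the cause was not tested.

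Single libraries of NEXTflex and liver give no spread, and members near 100 U-ended reads have few of them in each library.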
